A study of Homo with 4 samples.

Results

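The genes of cholesterol synthesis, uptake and transport were followed in H1299 cells carrying a short hairpin against IGF2BP3. The 30 genes were given as a list of symbols and were found in the count data by their position on GRCh38, and all 30 were present among the 20263 genes of the whole data set. H1299 is a human line of non-small cell lung cancer. The libraries came from cells infected with a lentiviral control hairpin (shCtrl, 2 libraries) and from cells infected with a lentiviral hairpin against IGF2BP3 (shIGF2BP3, 2 libraries), an RNA-binding protein that reads m6A-modified mRNA. No other allele or agent was given for either group, and no time after infection was given. The labels call the libraries of each group biological replicates 1 and 2 and say nothing of their cultures, so p-values measure the spread between these libraries. In the deposited columns the shIGF2BP3 libraries bear the numbers 2 and 3. The study made more than 1 hairpin against IGF2BP3, and whether both libraries carry the same hairpin is not given in the sources used here. Differences between hairpins and differences between cultures cannot be told apart in this group.

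Cells make cholesterol from acetyl-CoA. The mevalonate arm builds isoprenoid diphosphates, squalene synthase commits them to sterols, and a series of membrane enzymes in the endoplasmic reticulum turns the first sterol, lanosterol, into cholesterol. Most of these enzymes are transcribed under SREBP2 (encoded by SREBF2), which SCAP carries to the Golgi when sterols are low and which INSIG proteins hold back when sterols are high. When sterols are in excess, liver X receptors raise the export pump ABCA1 and the ubiquitin ligase MYLIP, which marks lipoprotein receptors for degradation.

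Each library held between 29709686 and 34817513 estimated counts. The share of mitochondrially encoded genes was 9.11% and 13.4% in shCtrl and 11.4% and 17.0% in shIGF2BP3. Replicates of both groups differed by more than sampling noise, and the common biological coefficient of variation was 22.8%. The targeted gene, IGF2BP3, was at 41.1 and 32.9 CPM (counts per 1000000 of the TMM-normalized library size) in shCtrl and at 26.4 and 24.8 CPM in shIGF2BP3. Its groups did not overlap, and its log2 fold change was -0.53 (SE 0.17; edgeR quasi-likelihood, unadjusted p 0.0244, adjusted p 0.472). That left 69.1% of the control level, and the fold of 1.45 was below the threshold of 1.5. The fold passed this threshold with library totals and with all 3 fits to FPKM, and the log2 fold change was -0.36 without shCtrl replicate 1. The unadjusted p was above 0.05 without that library (0.1) and without replicate 1 (0.0619) or replicate 2 (0.0993) of shIGF2BP3. Of the epithelial markers, KRT8 and KRT18 were at an FPKM (fragments per kilobase, scaled to library size) of at least 1 in every library, whereas KRT19, EPCAM and CDH1 were under 1 in all 4. The 3 measured lung identity markers (NKX2-1, SFTPB and SCGB1A1) and all endothelial and fibroblast markers were also under 1. The leukocyte markers PTPRC and CD3E were listed at 0, and only CD68 was detected. The 3 mesenchymal markers, VIM, CDH2 and FN1, summed to 1842 and 1931 FPKM in shCtrl and to 2094 and 2620 FPKM in shIGF2BP3. Nearly all of this sum was VIM. The log2 fold change was 0.40 for VIM, 0.07 for CDH2 and -0.56 for FN1, with adjusted p of 0.517, 0.899 and 0.558. The part of these differences in the results that follow was not tested.

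Most of the cholesterol genes differed little between the groups, and SC5D and MYLIP stood apart. At a fold of 1.5 or more with an unadjusted p up to 0.05, SC5D, a late sterol desaturase, and MYLIP, the ligase for lipoprotein receptors, were lower in shIGF2BP3. These 2 genes were 6.67% of the 30, against 2.78% of all genes tested. The members were chosen with earlier results of these data known, so such shares describe the list and do not test it against other genes. Not 1 of the 30 genes was higher at these thresholds, against 2.54% of all genes tested. An unadjusted p up to 0.05 was reached by 3 of the genes, PMVK, SC5D and MYLIP. This was 10% of the 30, and 10.5% of all genes tested had such a p. All 3 were lower and 0 were higher, and over all genes tested 5.12% were lower and 5.43% were higher at such a p. After Benjamini-Hochberg adjustment over the 13379 genes tested, 0 of the 30 passed an adjusted p of 0.05 in edgeR's quasi-likelihood fit, and the share among all genes was also 0%. DESeq2 gave 2 genes at that adjusted threshold, SC5D and MYLIP, and 1.2% of all genes tested passed it there. Without replicate 1 of shIGF2BP3, edgeR called 4 of the 30 genes lower at the fold and unadjusted p thresholds (SC5D, MYLIP, PMVK and INSIG1), against 6.37% of all genes in that fit. The first 2 of these also passed the adjusted threshold, against 0.613% of all genes. All 30 genes passed the filter on low counts. These were bulk samples, so fewer cells expressing a gene and less RNA per cell cannot be told apart.

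The signs of the fold changes were mixed, with 16 genes higher and 14 lower. Their median log2 fold change was 0.016, next to -0.002 over all genes tested, and the median size regardless of sign was 0.17, next to 0.222. Without SC5D and MYLIP the median was 0.028 and the range was -0.49 to 0.36. With library totals in place of TMM factors the median of the 30 was -0.072, and that of all genes was -0.081. For 12 of the 30 genes the whole 95% confidence interval of the fold lay within 1.5-fold either way, and for the others the data could not exclude a change of that size. Both shIGF2BP3 libraries were above both shCtrl libraries for 5 genes (16.7%, against 23.3% of all genes tested) and below both for 7 genes (23.3%, against 23.5%). The difference between groups exceeded both differences between replicates for 10 of the 30 genes, against 32.4% of all genes tested.

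**Figure D1:**
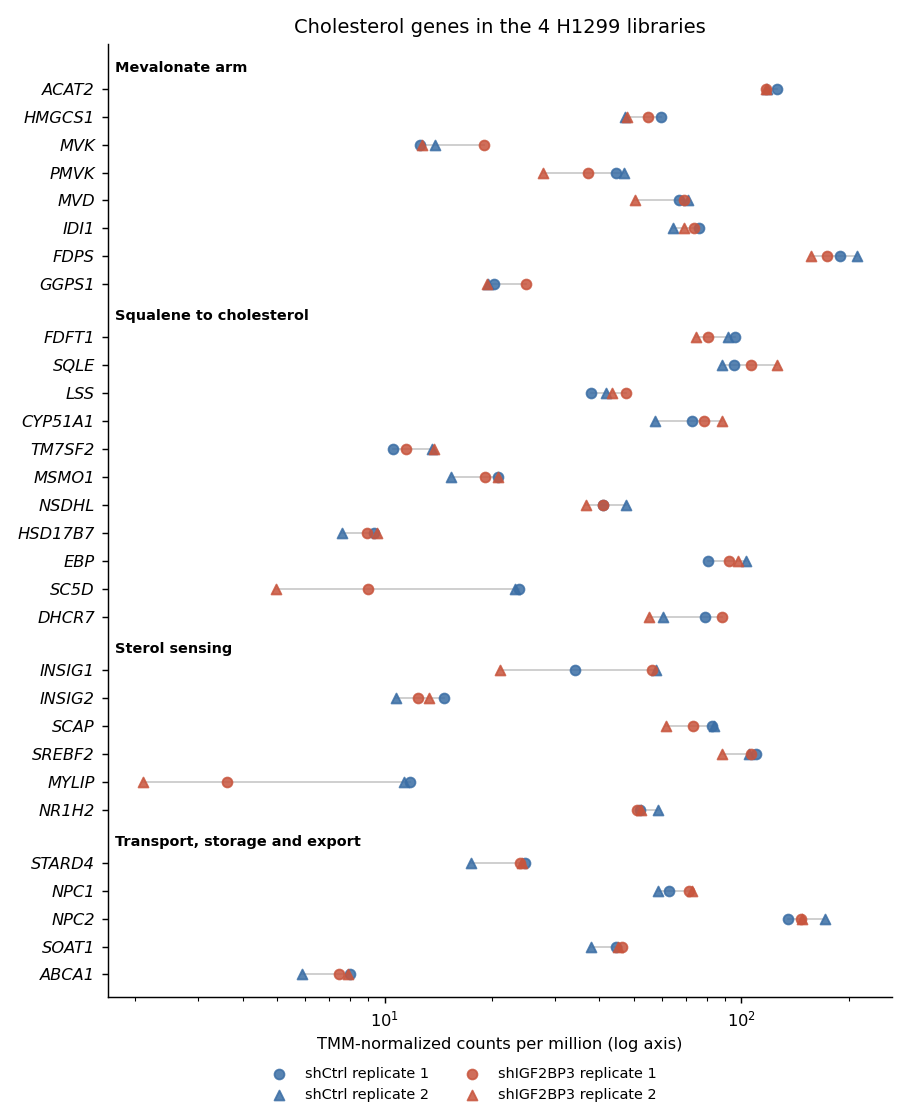
CPM (counts scaled to the TMM-normalized library size, log axis) of the 30 cholesterol genes in pathway order, with 1 point for each library. Circles are replicate 1 and triangles replicate 2, blue is shCtrl and red is shIGF2BP3, and the grey line joins the lowest and highest library. The red points lie far to the left of the blue points for SC5D (4.98 and 8.98 against 23.3 and 23.8) and MYLIP (2.11 and 3.62 against 11.3 and 11.8), and the groups mix or lie close for most other genes.

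Levels per length were compared first within shCtrl. The highest were NPC2, which binds cholesterol in the lysosome lumen, at a mean of 153 FPKM, and FDPS, the farnesyl diphosphate synthase, at 143 FPKM. FDFT1 (50.5 FPKM), EBP (45.5 FPKM) and MVD (36.4 FPKM) followed. SC5D was 23rd of the 30 at 8.35 FPKM, MYLIP was 29th at 4.02 FPKM, and ABCA1 was lowest at 0.58 FPKM. The 2 genes that fell were thus among the 8 least abundant of the 30 per length.

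The median log2 fold change of the 8 genes of the mevalonate arm was -0.054, and 0 of them passed the fold and p thresholds. PMVK, the kinase that phosphorylates phosphomevalonate, was at 44.4 and 47.0 CPM in shCtrl and at 37.1 and 27.8 CPM in shIGF2BP3. Both shIGF2BP3 libraries were below both controls. Its log2 fold change was -0.49 (SE 0.19, 95% interval -0.96 to -0.03), which left 71.1% of the control level (edgeR quasi-likelihood, unadjusted p 0.0412, adjusted p 0.472). The fold of 1.41 stayed under 1.5. Leaving out replicate 1 of shIGF2BP3 gave -0.71, which passed both thresholds, against -0.30 without replicate 2 (unadjusted p 0.199). The unadjusted p was also above 0.05 without replicate 1 (0.0836) or replicate 2 (0.133) of shCtrl, with library totals (0.0527), and in limma at a pseudocount of 0.1 (0.0535) or on unfiltered genes (0.0704).

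MVK, the mevalonate kinase one step earlier, went the other way on average. It was at 12.5 and 13.8 CPM in shCtrl and at 19.0 and 12.7 CPM in shIGF2BP3. The groups overlapped, and the log2 fold change of 0.27 (SE 0.24) had an unadjusted p of 0.318 and an adjusted p of 0.682. Without replicate 1 of shIGF2BP3 it was -0.05, so its sign was set by that library. MVK also overlaps MMAB on the opposite strand by 620 bases, and the use of strand in counting is not given in the sources used here.

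The other 6 genes of the arm did not pass any threshold. ACAT2, the cytosolic thiolase that joins acetyl-CoA units, was at 125 and 118 CPM in shCtrl and 117 in both shIGF2BP3 libraries. HMGCS1, the synthase of the next step, ranged from 47.3 to 59.4 CPM in shCtrl and from 47.9 to 54.7 CPM in shIGF2BP3. FDPS was at 189 and 211 CPM in shCtrl and at 173 and 157 CPM in shIGF2BP3. The groups of FDPS and ACAT2 did not overlap, and the log2 fold changes were -0.27 (unadjusted p 0.101) and -0.05 (0.7). MVD, the decarboxylase, had a log2 fold change of -0.21 (SE 0.19), IDI1, the isopentenyl diphosphate isomerase, 0.02 (SE 0.14), and GGPS1, which makes the geranylgeranyl diphosphate of prenylated proteins, 0.15 (SE 0.19). In shIGF2BP3, ACAT2 was nearly equal in both replicates (117.5 and 117.4 CPM), and the other 7 genes of the arm were higher in replicate 1, by 0.09 to 0.58 on the log2 scale. In shCtrl, 4 of the 8 were higher in replicate 1. FDPS has 10 named pseudogenes and IDI1 has 3, so reads could be split between copies. GGPS1 shares 870 bases on the opposite strand with ARID4B, which had a log2 fold change of 0.725. ACAT2 shares 2202 bases with SOD2 and 558 with TCP1, also on the opposite strand, and TCP1 was between 476 and 596 CPM. In all, 6 of the 30 genes overlap a gene on the opposite strand, and the part of this in the counts was not tested.

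From squalene to cholesterol, the median log2 fold change of the 11 genes was 0.064, and 8 of the 11 were positive in sign. The first enzyme, FDFT1 (squalene synthase), was at 96.2 and 91.8 CPM in shCtrl and at 80.4 and 74.4 CPM in shIGF2BP3. Its groups did not overlap, and the log2 fold change was -0.28 (SE 0.13, unadjusted p 0.0785). The next 3 enzymes had positive values, and their groups did not overlap either. Of the 11 genes, 27.3% had both shIGF2BP3 libraries above both controls, against 23.3% of all genes tested. Both were below both controls in 18.2%, against 23.5% of all genes tested, so these shares were near those of genes in general.

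SQLE, the squalene epoxidase, was at 95.4 and 88.4 CPM in shCtrl and at 106 and 126 CPM in shIGF2BP3. Both shIGF2BP3 libraries were above both controls. The log2 fold change was 0.34 (SE 0.15, 95% interval -0.03 to 0.70), at an unadjusted p of 0.0667 and an adjusted p of 0.482 (edgeR quasi-likelihood). LSS, the lanosterol synthase, was at 37.9 and 41.9 CPM in shCtrl and at 47.5 and 43.3 CPM in shIGF2BP3, a log2 fold change of 0.19 (SE 0.14). CYP51A1, the demethylase of lanosterol, was at 72.6 and 57.2 CPM in shCtrl and at 78.8 and 88.2 CPM in shIGF2BP3. Its log2 fold change, 0.36 (SE 0.17, 95% interval -0.06 to 0.79), was the highest of the 30, with an unadjusted p of 0.0796 and an adjusted p of 0.496. All 3 intervals include 0, and all 3 folds were under 1.5. With a library left out, the log2 fold change of SQLE ran from 0.21 to 0.46. That of CYP51A1 ran from 0.20 without replicate 2 of shCtrl to 0.55 without replicate 1, where the unadjusted p was 0.0299 and the adjusted p 0.542. CYP51A1 has 3 named pseudogenes and shares 1310 bases with LRRD1 on the same strand, and LRRD1 was below 0.2 CPM in every library.

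The enzymes between CYP51A1 and SC5D passed no threshold. TM7SF2, a sterol reductase, had a log2 fold change of 0.06 (SE 0.21), and MSMO1, which oxidizes the methyl groups of the sterol ring, 0.14 (SE 0.20). NSDHL, which follows MSMO1, had -0.19 (SE 0.15), and HSD17B7, the ketone reductase of the same cycle, 0.12 (SE 0.20). EBP, the sterol isomerase directly before SC5D, was at 80.6 and 102.9 CPM in shCtrl and at 92.3 and 98.0 CPM in shIGF2BP3. In all 5 genes the groups overlapped. TM7SF2 shares 16 bases with VPS51 on the same strand, and HSD17B7 has 2 named pseudogenes.

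SC5D, the desaturase that acts after EBP, was at 23.8 and 23.3 CPM in shCtrl (23.5 ± 0.387, SD, n = 2) and at 8.98 and 4.98 CPM in shIGF2BP3 (6.98 ± 2.83, SD, n = 2). Both shIGF2BP3 libraries were far below both controls, and the controls lay close together. The log2 fold change was -1.75 (SE 0.31, 95% interval -2.52 to -0.98), which left 29.7% of the control level. The unadjusted p was 0.00174 and the adjusted p 0.328 (edgeR quasi-likelihood), the 71st smallest p of all genes tested, and 0.471% of the genes tested had a fold change as low. SC5D fell at the fold and unadjusted p thresholds in all 10 alternative fits and without any 1 library. Leaving out replicate 1 of shIGF2BP3 gave a log2 fold change of -2.23, and leaving out replicate 2 gave -1.39. On the FPKM scale the mean went from 8.35 to 2.79, a 2.99-fold difference.

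DHCR7, the reductase that takes the product of SC5D to cholesterol, did not follow. It was at 79.1 and 60.4 CPM in shCtrl and at 88.0 and 55.0 CPM in shIGF2BP3. The groups overlapped, the spread within each was wide, and the log2 fold change was 0.04 (95% interval -0.63 to 0.70). The enzymes on either side of SC5D, EBP and DHCR7, thus had fold changes of 1.04 and 1.03.

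**Figure D2:**
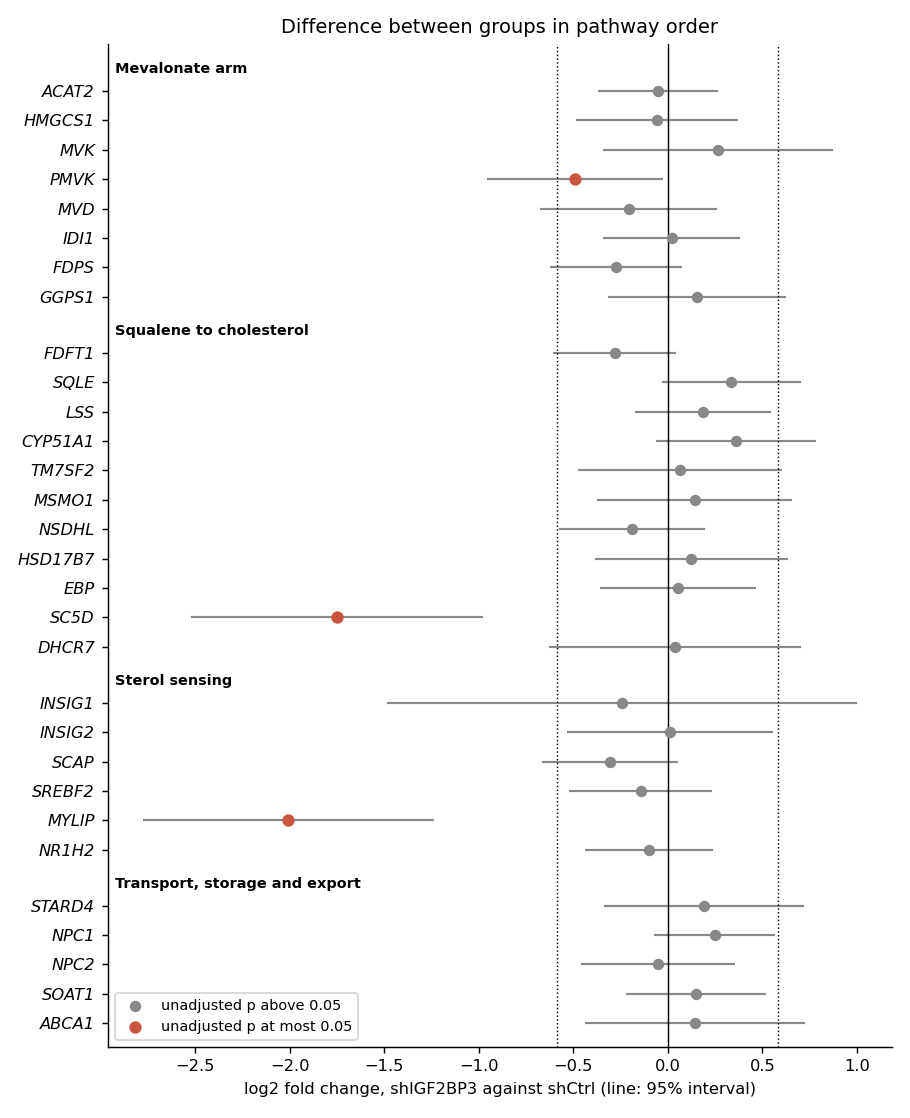
Log2 fold change of shIGF2BP3 against shCtrl for the 30 genes in pathway order, with the 95% confidence interval as a line. Dotted lines mark a fold of 1.5 either way, and red points have an unadjusted p up to 0.05. SC5D (-1.75) and MYLIP (-2.01) lie left of the dotted line with their whole interval, PMVK (-0.49) does not, and no gene has its interval to the right of 0.

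Among the 6 genes of sterol sensing, the median log2 fold change was -0.192, and 5 of the 6 were negative in sign. SREBF2, which encodes the main transcription factor of the pathway, was at 110 and 105 CPM in shCtrl and at 107 and 88.2 CPM in shIGF2BP3, with overlapping groups. SCAP, its escort, was at 82.7 and 83.9 CPM in shCtrl and at 73.1 and 61.6 CPM in shIGF2BP3, with no overlap. The log2 fold changes were -0.14 (SE 0.15, unadjusted p 0.381) for SREBF2 and -0.31 (SE 0.14, unadjusted p 0.0829) for SCAP. Neither passed a threshold.

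INSIG1, a target of SREBP2 and the retention partner of SCAP, varied most between replicates. It was at 34.2 and 57.4 CPM in shCtrl and at 56.3 and 21.0 CPM in shIGF2BP3. The 2 libraries of shIGF2BP3 differed by 1.42 on the log2 scale and those of shCtrl by 0.75. The 95% interval of its log2 fold change ran from -1.48 to 1.00, so neither a higher nor a lower level could be detected. Without replicate 1 of shIGF2BP3 the log2 fold change was -1.11 and passed the fold and unadjusted p thresholds. INSIG2, its paralog, ranged from 10.7 to 14.7 CPM over the 4 libraries, with a log2 fold change of 0.01 (SE 0.22). NR1H2, the liver X receptor beta, was at 52.1 and 58.4 CPM in shCtrl and at 51.0 and 52.1 CPM in shIGF2BP3, a log2 fold change of -0.10 (SE 0.14).

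MYLIP was at 11.8 and 11.3 CPM in shCtrl (11.6 ± 0.357, SD, n = 2) and at 3.62 and 2.11 CPM in shIGF2BP3 (2.86 ± 1.07, SD, n = 2). The groups did not overlap, and as for SC5D the controls were close to each other while replicate 2 was the lower of the knockdown libraries. The log2 fold change was -2.01 (SE 0.31, 95% interval -2.77 to -1.24), which left 24.9% of the control level. The unadjusted p was 0.000884 and the adjusted p 0.252 (edgeR quasi-likelihood), the 47th smallest p of all genes tested, and 0.366% of the genes had a fold change as low. The change passed the fold and unadjusted p thresholds in all 10 alternative fits and without any 1 library. On the FPKM scale the mean went from 4.02 to 1.44, a 2.79-fold difference, which is smaller than in CPM. The liver X receptor gene NR1H2 and the other liver X receptor target among the 30, ABCA1, did not pass a threshold. Named after its values were seen, NR1H3, the other liver X receptor gene, also passed no threshold. It was at 8.94 and 13.1 CPM in shCtrl and at 8.92 and 7.66 CPM in shIGF2BP3, without overlap. Its log2 fold change was -0.41 (SE 0.25, edgeR quasi-likelihood, unadjusted p 0.161). The part of these receptors in the lower level of MYLIP was not tested.

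Over the 5 genes of transport, storage and export the median log2 fold change was 0.15, and 0 of them passed a threshold. NPC1, which exports cholesterol from the lysosome, was at 62.7 and 58.3 CPM in shCtrl and at 71.2 and 72.5 CPM in shIGF2BP3. The groups did not overlap, and the log2 fold change was 0.25 (SE 0.13, unadjusted p 0.106). NPC1 overlaps RMC1 on the opposite strand over 25624 bases, and RMC1 was between 19.95 and 24.66 CPM. SOAT1, which esterifies cholesterol for storage, was at 44.5 and 37.9 CPM in shCtrl and at 46.3 and 45.1 CPM in shIGF2BP3, a log2 fold change of 0.15 (SE 0.15) without overlap. NPC2 (-0.05), STARD4, a cytosolic sterol carrier (0.19), and ABCA1 (0.14) had overlapping groups. ABCA1 had between 199 and 301 estimated counts in each library, and its 95% interval ran from -0.44 to 0.72.

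**Figure D3:**
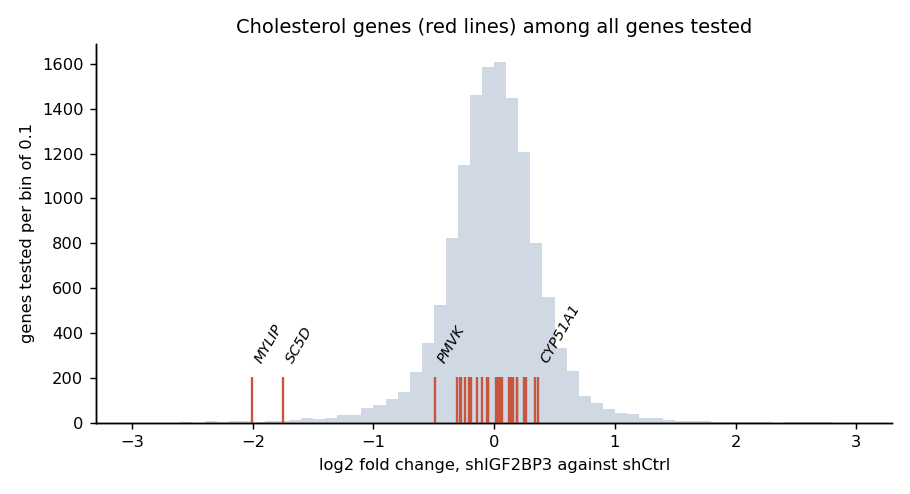
Distribution of the log2 fold change of shIGF2BP3 against shCtrl over the genes tested (grey, bins of 0.1), with the 30 cholesterol genes as red lines of fixed height. The axis is cut at 3 either way, which leaves out 32 genes. MYLIP and SC5D lie in the lower tail, where 2.04% of the genes tested had a log2 fold change of -1 or lower, and the other 28 genes lie between -0.49 and 0.36.

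Next, single transcripts were examined for genes that had a sign opposite to the median of the 30, which was positive, and a log2 fold change of at least 0.3 in size. These were SC5D, MYLIP, PMVK and SCAP, of which PMVK and SCAP had not passed the fold and p thresholds. The median was 0.016 in the main fit and -0.072 with library totals, so the sign used for this choice depended on the normalization. The 30 genes had 182 transcripts in the files, of which 116 were tested. At the fold and unadjusted p thresholds, 7 of the 116 were lower and 3 of the 116 were higher. Of all 37927 transcripts tested, 1438 (3.79%) were lower and 950 (2.5%) were higher. In either set 0 passed an adjusted p of 0.05 (edgeR quasi-likelihood). SC5D and NR1H2 each gave both a lower and a higher transcript, and calls within a gene are not independent. The authors' counts of overlapping transcripts are estimates that divide shared reads, and the part of that division in the differences was not tested.

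SC5D lies on the plus strand of chromosome 11 from 121292453 to 121308694 and shares no base with another gene of the files. Its full-length transcript, ENST00000264027, was at 8.87 and 7.81 FPKM in shCtrl and at 0.849 and 0.949 FPKM in shIGF2BP3. It made up 100% and 99.8% of the gene's FPKM in the controls, and 22.6% and 52.2% in shIGF2BP3. The log2 fold change of this transcript was -3.12 (SE 0.30), with an unadjusted p of 0.00112 and an adjusted p of 0.419. A second transcript, ENST00000534230, which starts 318 bases further downstream and ends 64 bases earlier, was listed at 0 in both controls and at 2.22 and 0.871 FPKM in shIGF2BP3. Its counts were 165 and 56 against 0 and 0 (edgeR quasi-likelihood, unadjusted p 0.00818, adjusted p 0.44). With 3 counts per library put in place of 0, it was 40.5-fold higher. That fold depends on the chosen 3 counts and is not a lower bound, since replicates differed by more than sampling noise. ENST00000392789, which starts 399 bases downstream of the gene's start, had 62 counts in replicate 1 of shIGF2BP3, 2 in replicate 2 of shCtrl and 0 in the other libraries. The sum of these estimates was lower at the gene level, since the other transcripts gained less than ENST00000264027 lost.

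MYLIP lies on the plus strand of chromosome 6 from 16129125 to 16148248 and also shares no base with another gene of the files. It had 2 transcripts. ENST00000349606, which reaches the gene's 3′ end, was at 3.21 and 2.74 FPKM in shCtrl, with 369 and 315 counts, and was listed at 0 in both shIGF2BP3 libraries. With the same 3 counts per library in place of 0, this transcript was 97.6-fold lower, which again is not a lower bound. The test on its counts gave an unadjusted p of 0.00171 and an adjusted p of 0.419 (edgeR quasi-likelihood). It had held 74.7% and 73.4% of the gene's FPKM. ENST00000356840, which ends 1367 bases before the gene's 3′ end, was at 1.09 and 0.995 FPKM in shCtrl and at 1.88 and 1.00 FPKM in shIGF2BP3. The groups of this shorter transcript overlapped, and its log2 fold change of 0.54 (SE 0.48) had an unadjusted p of 0.338. In these estimates the lower sum of MYLIP lay in the transcript with the more distal 3′ end, and how far it rests on the division of reads shared by the 2 transcripts was not tested. Of the 22213 transcripts that reached 1 FPKM in 2 libraries, 0.545% were at 1 or more in both controls and at 0 in both shIGF2BP3 libraries. The reverse held for 0.185%. Between the 2 controls alone, 2.86% were at 1 or more in one library and at 0 in the other. Replicate 2 of shIGF2BP3 had the lowest total count and the fewest transcripts with a count, 46102, against 50763 to 53265 in the other libraries. The part of this difference in the zeros was not tested.

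**Figure D4:**
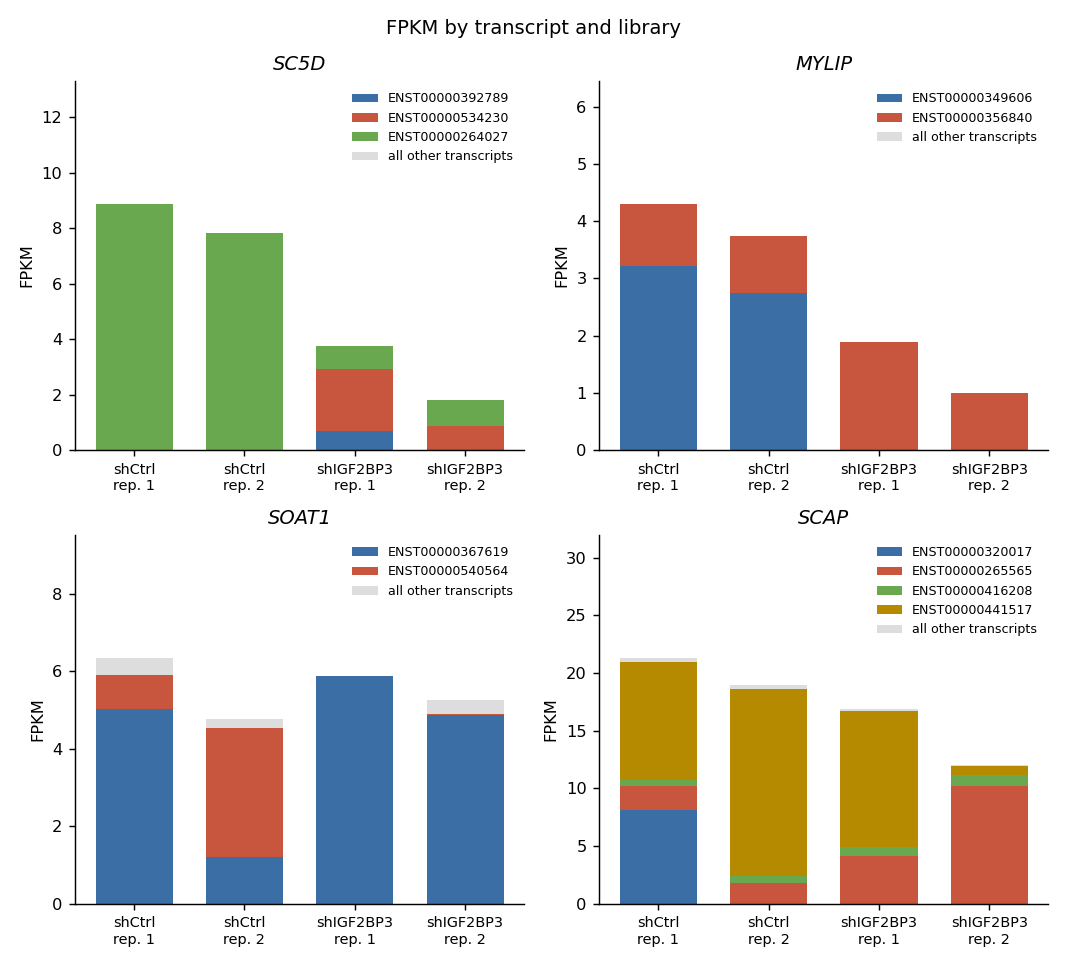
FPKM of single transcripts stacked in each of the 4 libraries for SC5D, MYLIP, SOAT1 and SCAP, with 1 bar per library and transcripts of small share in grey. In SC5D the green transcript fills the control bars and is under 1 FPKM in both shIGF2BP3 bars. In MYLIP the blue transcript is absent from both shIGF2BP3 bars while the red one stays between 0.995 and 1.88 FPKM, and in SCAP the makeup differs between all 4 bars.

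PMVK had 1 transcript in the files, so its gene and transcript values were the same: 31.8 and 30.4 FPKM in shCtrl and 25.2 and 17.3 FPKM in shIGF2BP3. In the fit over transcripts its log2 fold change was -0.47 (SE 0.23), with an unadjusted p of 0.124. SCAP, on the minus strand of chromosome 3 from 47413694 to 47477126, had 9 transcripts, and its makeup differed between libraries of the same group. ENST00000441517 was at 10.2 and 16.2 FPKM in shCtrl and at 11.8 and 0.787 FPKM in shIGF2BP3. ENST00000320017 was at 8.16 FPKM in replicate 1 of shCtrl and listed at 0 in the other 3 libraries. ENST00000265565 was at 2.00 and 1.78 FPKM in shCtrl and at 4.12 and 10.2 FPKM in shIGF2BP3, a log2 fold change of 2.04 (SE 0.60, unadjusted p 0.0353, adjusted p 0.677). This transcript was the only one of SCAP to pass the fold and unadjusted p thresholds, and it was higher while the gene's sum was lower in both shIGF2BP3 libraries. The 3 transcripts start 1013 to 1189 bases downstream of the gene's start and end at the same base.

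The share of the leading transcript, the one with the highest mean FPKM in shCtrl, could be compared in the 28 genes with more than 1 transcript. It was lower in both shIGF2BP3 libraries than in both controls for 6 genes and higher for 6. Over all tested genes with more than 1 transcript these shares were 17.8% and 16.3%, so the counts are close to those of genes in general. The mean differences of MYLIP and SC5D, -74 and -62.5 percentage points, were the lowest of the 28. In MVK, IDI1, FDPS and GGPS1 they lay between -16.9 and -1.07 points. SOAT1 had the highest difference, 44 points, but its controls were at 79.2% and 25.3% and so differed by more than the groups did. Among the same 28 genes, the controls differed by over 20 points in 7 and by under 10 points in 17. SC5D and MYLIP were among the latter, at 0.197 and 1.35 points. The matching counts over all genes were not made, so these describe the 28 genes only.

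**Figure D5:**
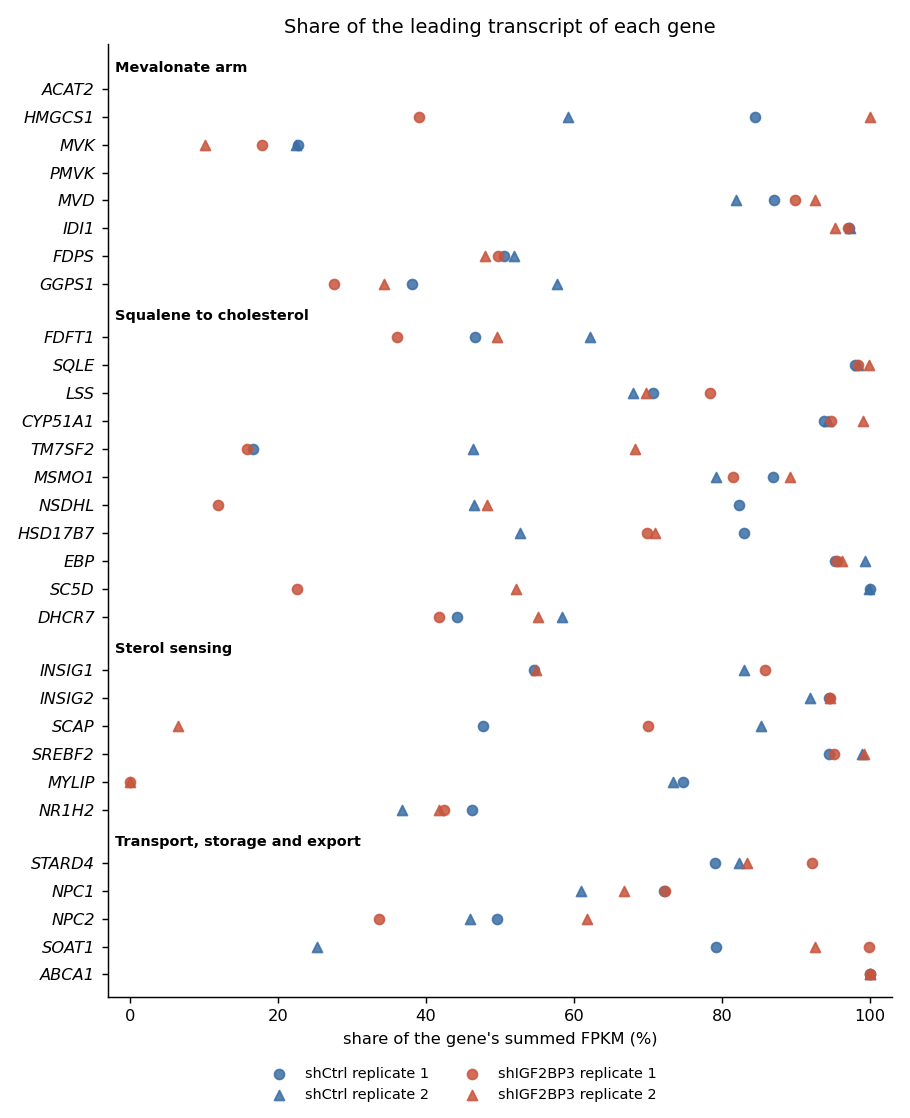
Share of the leading transcript in the summed FPKM of its gene, in percent, with 1 point per library for the 28 genes with more than 1 transcript (ACAT2 and PMVK have a single one and are left empty). Circles are replicate 1 and triangles replicate 2, blue is shCtrl and red is shIGF2BP3. The blue points of SC5D lie at 99.8% and 100% and the red at 22.6% and 52.2%, the red points of MYLIP lie at 0%, and HMGCS1, NSDHL, SCAP and SOAT1 have wide gaps between points of the same colour.

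The other called transcripts were named after their values were seen. SOAT1's ENST00000540564 was at 0.871 and 3.33 FPKM in shCtrl and at 0.00473 and 0.0282 FPKM in shIGF2BP3 (unadjusted p 0.0124), while the gene as a whole was close to its controls. In NR1H2, ENST00000598168 was listed at 0 in shCtrl and at 1.25 and 1.04 FPKM in shIGF2BP3 (edgeR quasi-likelihood, unadjusted p 0.00341). It was 31.2-fold higher with 3 counts per library in place of 0. ENST00000593532 was lower (edgeR quasi-likelihood, unadjusted p 0.0145). NPC2's ENST00000555592 was at 4.47 and 3.28 FPKM in shCtrl and at 0.992 and 0.755 FPKM in shIGF2BP3 (unadjusted p 0.0166). LSS and TM7SF2 each had 1 minor transcript with 22 to 38 counts in the controls and 0 in shIGF2BP3. With the same 3 counts in place of 0 they were 6.57-fold and 9.26-fold lower, and these folds too are not lower bounds. In all 5 genes the gene's own fold change stayed under 1.5.

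Finally, 67 other genes around the pathway were counted: SREBP processing, isoprenoid branches, sterol transport and storage, and neighbouring enzymes. Of the 60 that passed the filter on low counts, 0 were past the fold and unadjusted p thresholds in either direction. An unadjusted p up to 0.05 was reached by 6, the same 10% share as among the 30 genes and close to the 10.5% of all genes tested. These 6, named after their values were seen, had an adjusted p of 0.472 each. SREBF1, the paralog of SREBF2 that drives fatty acid synthesis, was at 283 and 311 CPM in shCtrl and at 227 and 210 CPM in shIGF2BP3, a log2 fold change of -0.44 (SE 0.13, unadjusted p 0.0186). SNX17, a sorting nexin that recycles lipoprotein receptors, and the mitochondrial thiolase ACAT1 were also lower, with -0.40 and -0.38. PGRMC1, a sterol-binding membrane protein, RABGGTB, a subunit of a protein prenyltransferase, and EBPL, a relative of EBP, were higher, with 0.37, 0.33 and 0.44. All 6 folds were under 1.5. The median log2 fold change of the 60 was -0.044, and the medians of the 4 lists ran from -0.085 to 0.049. The remaining genes of these lists were too low to test.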

How the data were processed

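RNA-seq of H1299 cells was analysed in 2 groups of 2 libraries, shCtrl and shIGF2BP3, grouped by the sample labels. For each transcript and library the authors deposited an estimated count, a whole number that is not normalized, and an FPKM value, which corrects for the length of the transcript and the size of the library. The submitters' processing notes name CASAVA, FastQC, Trimmomatic, HISAT2, bedtools and GRCh38. The counter, the annotation and the use of strand are not given in the sources used here.

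Estimated counts and FPKM of 95139 transcripts were summed to 20263 genes. Symbols were assigned by position against RefSeq genes of GRCh38.p14 (shared part of at least 0.5 of the joint length, lead of 0.2 over any other gene), which named 18327 genes. The smallest shared parts among the 30 genes were 0.528 (IDI1) and 0.55 (MYLIP). The members and lists were chosen with earlier results of these data known.

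The gene test was edgeR 4.0.16 under R 4.3.3 (TMM, estimateDisp, glmQLFit, glmQLFTest, prior count 0.125) on the 13379 genes kept by filterByExpr (minimum count 10, minimum total 15), with Benjamini-Hochberg adjustment over all of them. Transcripts were tested in the same way. The thresholds, a fold of 1.5 or more with an unadjusted p up to 0.05, follow the methods of the study. Full statistics were given for members with an unadjusted p up to 0.05 and for the 3 highest and 3 lowest fold changes. Other pathway genes were to be named only at the same thresholds, and none passed. The fitting steps were tested on simulated data. The fit was repeated with DESeq2 1.42.0, with RLE factors, with library totals (all genes, or without those of the mitochondrial genome), with 2 other count filters, with a replicate block and without each library in turn. FPKM values were fitted with limma 3.58.1 on the log2 scale. A pseudocount of 1 or 0.1 was added, and genes needed 1 FPKM in 2 libraries. The fit with a pseudocount of 1 was also made on unfiltered genes. Replicates differed with a chi-square of 80.2 and 79.7 per degree of freedom, so the spread between libraries, not counting error, set the precision. A count of promoter motifs was planned and not run, since no promoter sequence was used here.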

Additional observations from a re-analysis of the deposited data

How the results depend on the processing

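With only 2 libraries per group and a residual of 2 degrees of freedom, fold changes below about the spread between replicates could not be told from 0, and a missed threshold does not show equal levels. Not 1 of the 30 genes was higher at the fold and unadjusted p thresholds in any alternative. The lower genes numbered 2 in all 10 alternatives that kept every library, and 2 to 4 when a library was left out, with PMVK and INSIG1 added without replicate 1 of shIGF2BP3, where lower genes were 872 of 13695 over all genes. Genes at an adjusted p under 0.05 numbered 2 with DESeq2, and 0 to 2 with a library left out, where the 2 came without replicate 1 of shIGF2BP3 and were SC5D and MYLIP. Over all genes these fits gave 160 and 84 at that threshold. Over all genes the calls were 340 higher and 372 lower, and 195 and 485 with library totals.

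Library totals moved the median log2 fold change of the 30 genes to -0.072. In the limma fits to FPKM it was -0.087 at a pseudocount of 1, -0.091 at a pseudocount of 0.1, and -0.078 when low FPKM values were not filtered. The medians of all genes in these fits were -0.081, -0.070, -0.081 and -0.026. With a library left out it ran from -0.061 to 0.059. ABCA1 failed the FPKM filter. IGF2BP3 passed the fold and unadjusted p thresholds at -0.62 with library totals. In limma it passed them at -0.68 with a pseudocount of 0.1 and at -0.60 with a pseudocount of 1, filtered or not. It ran from -0.69 to -0.36 with a library left out, and its unadjusted p was above 0.05 without shCtrl replicate 1 or either shIGF2BP3 library. The adjusted p ran from 7.78e-05 to 0.601 for SC5D and from 2.07e-05 to 0.489 for MYLIP, lowest with DESeq2. The log2 fold change of MYLIP was -1.06 in limma at a pseudocount of 1, which shrinks the folds of low values. MVK turned to -0.045 when replicate 1 of shIGF2BP3 was left out, in a range up to 0.53. The causes of these shifts were not tested.

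With a replicate block the calls among the 30 genes were 0 higher and 2 lower, the median was 0.017, IGF2BP3 was at -0.53, SC5D at -1.81 and MYLIP at -2.05, and no call changed. The deviations of same-numbered libraries had a correlation of 0.0218, so the numbers were not taken to pair the libraries. The planned promoter motif count was not run.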
